A study of Mus musculus with 19 samples.

Results

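Cathepsins and their secreted inhibitor cystatin C were examined in microglia sorted from the mouse retina, where they are the resident macrophages, on day 3 after laser-induced choroidal neovascularization (CNV d3) and in unlasered control mice. The 10 genes, *Cst3*, *Ctsa*, *Ctsb*, *Ctsc*, *Ctsd*, *Ctsh*, *Ctsk*, *Ctsl*, *Ctss* and *Ctsz*, were chosen by their symbols among the 27299 genes of the deposited table, and all 10 had a row. Bulk RNA-seq had been made from 6 CNV d3 and 6 control samples of mice aged 8 weeks. CNV d3 eyes had received 6 laser burns each, and control eyes had none but were dissected in the same way to keep the central retina. The labels give the strain as C57BL/6J and the sort as CD45+CD11b+CX3CR1+Ly6C-Ly6G-, whereas the methods of the study name *Cx3cr1* GFP/+ mice, which carry 1 reporter allele in place of a *Cx3cr1* copy, and cells low for CD45. Both groups share this genotype and sort. GEO holds 2 entries for each of the 6 control samples and for replicate 4 of CNV d3, which were taken as 1 sample each. By the methods, every sample was merged from 2 BAM files that came from separate flow cells, but only these samples have 2 entries. The part of this listing in the results was not tested, and the listing mostly coincides with the condition. Replicate 4 of CNV d3, the only laser sample entered so, had 313742 normalized counts of *Cst3* and 150765 of *Ctsb*. Both values lay outside the control range. Among the CNV d3 samples, however, its *Ctsb* was the lowest and its *Cst3* the highest but for replicate 1, so both were towards the control side. No source says whether samples came from separate animals, so the p-values measure the spread between these samples, which may be in part technical.

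Cathepsins are proteases that are made as inactive precursors, carried to the lysosome and switched on there by low pH. Most are cysteine proteases (*Ctsb*, *Ctsc*, *Ctsh*, *Ctsk*, *Ctsl*, *Ctss* and *Ctsz*), *Ctsd* is an aspartic protease and *Ctsa* a serine carboxypeptidase that also shields other lysosomal enzymes. Microglia use them to digest what they take up, to trim the invariant chain of major histocompatibility complex (MHC) class II and, once secreted, to cut matrix. Cystatin C is secreted in large amounts and blocks cysteine cathepsins that have left the lysosome.

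Promoter sequences are shown for *Cst3* and *Ctss*, the highest of the genes and both lower in CNV d3, and for *Ctsd*, which did not pass the test. The windows searched cover the 250 bases before each RefSeq transcription start on GRCm38.p6. By Gencode M21 some of these genes begin at another base. Thus 180 of the bases lie inside *Cst3*, 211 inside *Ctsd* and all 250 inside *Ctsl*, for which no run is shown. For *Ctss*, which begins at the same base, 0 lie inside. Only the bases upstream of the annotated gene are printed, 5′ to 3′ on the strand of the gene. Capitals mark matches on either strand to CACGTG, the E-box letters found in the CLEAR element that the lysosomal regulator TFEB reads, to GAGGAA, the core read by the myeloid factor PU.1, and to the letters of an interferon response element (GAAA, any pair of bases, GAAA). No matches of different motifs overlap in these runs.
Cst3, chr2:148875693-148875762, minus strand: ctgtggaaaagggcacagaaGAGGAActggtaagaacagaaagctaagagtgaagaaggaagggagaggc
Ctss, chr3:95526536-95526785, plus strand: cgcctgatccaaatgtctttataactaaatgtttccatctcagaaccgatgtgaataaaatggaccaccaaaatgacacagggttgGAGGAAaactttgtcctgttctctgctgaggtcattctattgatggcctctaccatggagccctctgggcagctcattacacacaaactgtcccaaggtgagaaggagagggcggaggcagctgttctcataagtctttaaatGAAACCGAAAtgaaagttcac
Ctsd, chr7:142388039-142388077, minus strand: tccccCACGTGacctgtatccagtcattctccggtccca
Of the 10 genes, 8 had an entry, with 9 windows because *Ctsa* had 2. *Ctsb* and *Ctsh* had none. CACGTG stood in the windows of *Ctsd* (98 and 245 bases before the RefSeq start), *Ctsl* (236 bases) and *Ctsa* (12 bases, in 1 of its windows), and in 6.02% of all 32851 windows. GAGGAA stood in those of *Cst3*, *Ctsc*, *Ctsk* and *Ctss*, and in 23.3% of all windows. The interferon response letters stood 21 bases before the start of *Ctss*, as GAAACCGAAA, and in 2.98% of all windows. The matches in *Ctsl* and *Ctsa* and the nearer one in *Ctsd* lie inside the annotated gene. These are matches of letters only. *Ctsk* (chr3:95499256-95509362) and *Ctss* (chr3:95526786-95556403) are neighbours on the same strand, 17424 bases apart with no annotated gene between them.

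*Cst3* and most of the cathepsins were among the highest transcripts of these cells. To compare levels between genes, the normalized counts were divided by the length of the principal transcript in kb. In control, *Cst3* was at 806178 ± 70312 normalized counts per kb (SD, n = 6), rank 1 of all genes with a length, and *Ctss* at 270970 ± 19402 held rank 2. *Ctsd* followed at 98046 ± 6675 (rank 10) and *Ctsz* at 50164 ± 3222 (rank 21). These first 4 genes stood apart from each other in every control sample. *Ctsb*, *Ctsl*, *Ctsc* and *Ctsh* lay close together, between 20954 and 25546 normalized counts per kb on average, and the ranges of neighbours in this order overlapped. *Ctsa* was lower, at 10093 ± 424. *Ctsk*, the collagen-degrading cathepsin of osteoclasts, was close to absent.

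In CNV d3 the order began in the same way, but *Cst3* (304826 ± 101200 normalized counts per kb, rank 2 of all genes) and *Ctss* (206524 ± 38071, rank 3) had moved close to each other and their ranges overlapped, although *Cst3* was above *Ctss* within each of the 6 samples. *Ctsd* (88821 ± 11391) and *Ctsz* (50987 ± 3709) came next, without overlap of neighbours. *Ctsb* (36530 ± 3709), *Ctsl* (31378 ± 2826), *Ctsh* (27680 ± 1784) and *Ctsc* (25575 ± 2037) followed, each overlapping the next. The order depends in part on the transcript chosen, below *Ctsb* and, in CNV d3, also between *Cst3* and *Ctss*. With the union of all annotated exons as the length, *Ctsa*, *Ctsh* and *Ctsl* overlapped in control. In CNV d3, *Cst3* was by that length above *Ctss* in 3 of the 6 samples.

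The comparison of CNV d3 with control asked how microglia of the central retina, which holds the laser lesions, differ from those of unlasered eyes. It was made on log2(normalized counts + 1) with limma over all 27299 genes, with Benjamini-Hochberg adjustment, and fold changes are on that scale. Of the 10 genes, 3 were higher in CNV d3 at an adjusted p under 0.05 (*Ctsb*, *Ctsh* and *Ctsl*), 2 were lower (*Cst3* and *Ctss*) and 5 did not pass. Over all genes, 8.29% were called higher and 4.57% lower. Among the 271 genes with a mean of at least 10000 normalized counts, a level that 9 of the 10 genes reach, 26.2% were called higher and 32.8% lower. The median log2 fold change was 0.093 for the 10 genes, 0.15 for all genes and -0.052 for the 271 genes with a mean of at least 10000. In edgeR with TMM, the median of genes with a mean of at least 10 was -0.02 where limma gave 0.10, and the 5 called genes kept their directions under each scaling tried. In bulk samples, fewer cells of a type and less RNA per cell cannot be told apart.

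*Cst3* (chr2:148871722-148875692, minus strand) showed the largest difference of the 9 well-measured genes. In control samples it lay between 598917 and 782097 normalized counts, with a median of 702446. In CNV d3 samples it lay between 153197 and 394790, with a median of 259823. The groups did not overlap: even the highest CNV d3 sample, replicate 1, was far below the lowest control sample, while replicate 3 was lowest. The mean fell from 693313 ± 60468 to 262150 ± 87032 (SD, n = 6 each), 2.64-fold lower in CNV d3, with a log2 fold change of -1.47 (SE 0.17, 95% confidence interval -1.84 to -1.09, adjusted p = 9.03e-05 by limma). By limma, *Cst3* therefore stood just inside the limit of 1.5 that the study sets for differentially expressed genes (DEG). None of the 10 genes was a DEG, against 4.99% of all genes. The study applied its limit to DESeq2 fold changes, and on the recovered reads *Cst3* was at -1.40 by DESeq2 and -1.38 by edgeR. In limma, *Cst3* passed the limit without control replicate 2 (-1.51), without CNV d3 replicate 1 (-1.60) or without CNV d3 replicate 4 (-1.53). Its share of all normalized counts had a median of 3.20% in control (2.79 to 3.54%) and 1.21% in CNV d3 (0.73 to 1.81%).

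*Ctss* (chr3:95526786-95556403, plus strand), cathepsin S, works also at neutral pH and is the main protease of the invariant chain in antigen-presenting cells. Control samples ranged from 336911 to 407187 normalized counts, with a median of 362265. CNV d3 samples ranged from 202177 (replicate 3) to 344574 (replicate 1), with a median of 288046. Of the 6 CNV d3 samples, 5 lay below every control sample, and replicate 1 reached into the control range. The mean was 367164 ± 26290 in control and 279840 ± 51586 in CNV d3, which gives a log2 fold change of -0.41 (SE 0.11, 95% confidence interval -0.64 to -0.18, adjusted p = 0.0183 by limma). This call was weak: over the alternatives the adjusted p of *Ctss* lay between 0.00766 and 0.112, and it was above 0.05 without control replicate 3 (0.0677), 4 (0.0560) or 5 (0.0627) and without CNV d3 replicate 2 (0.0746) or 6 (0.0859).

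**Figure D1:**
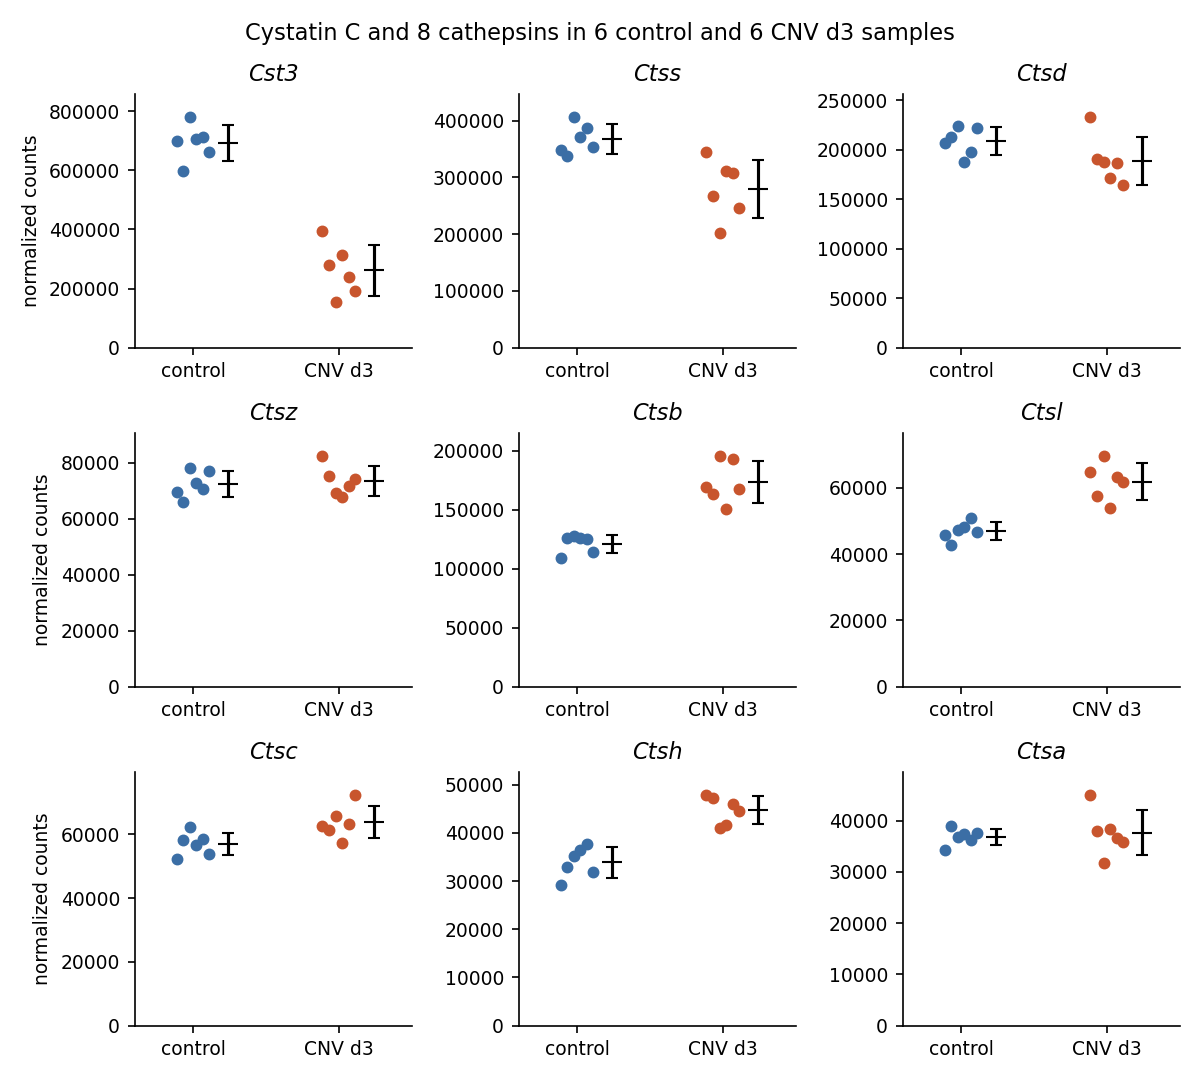
Normalized counts (linear axis from 0) of *Cst3* and 8 cathepsins in each sample, with controls in blue and CNV d3 in orange, and mean ± SD in black (n = 6 per group). *Cst3*, *Ctsb*, *Ctsl* and *Ctsh* have groups that do not overlap, and *Ctss* overlaps only through CNV d3 replicate 1.

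Of the cathepsins that were higher, *Ctsb* (chr14:63122462-63145923, plus strand), a cathepsin that cuts inside proteins and also trims their ends, changed most. It ranged from 109219 to 127322 normalized counts in control (median 125409) and from 150765 to 195747 in CNV d3 (median 168348). Every CNV d3 sample exceeded every control sample, and replicates 3 and 5 were highest. The mean rose from 121164 ± 7636 to 173259 ± 17591, 1.43-fold, with a log2 fold change of 0.51 (SE 0.070, adjusted p = 0.000251).

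*Ctsl* (chr13:64359337-64370890, minus strand), an endopeptidase of the lysosome, ranged from 42859 to 50919 normalized counts in control (median 46989) and from 53797 to 69762 in CNV d3 (median 62552). The groups did not overlap, and CNV d3 replicate 3 was again highest. The log2 fold change was 0.40 (1.32-fold, adjusted p = 0.00124). *Ctsh* (chr9:90054152-90076089, plus strand), an aminopeptidase, ranged from 29133 to 37786 in control (median 34036) and from 41018 to 47958 in CNV d3 (median 45263). Here too the groups were apart, but CNV d3 replicate 3 was the lowest of its group. The log2 fold change was 0.40 (1.32-fold, adjusted p = 0.00162). Without the mean-variance trend of limma, the adjusted p was 0.0506 for *Ctsh* and 0.0510 for *Ctsl*, while *Ctsb* stayed below 0.05 in all 23 alternatives. Groups that do not overlap were found for 4 of the 10 genes (*Cst3*, *Ctsb*, *Ctsh* and *Ctsl*), for 7.47% of all genes and for 41.3% of the genes with a mean of at least 10000.

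The other cathepsins did not pass the test, and their intervals limit how far they could have moved. *Ctsd* (chr7:142375911-142388038), the main aspartic protease of the lysosome, was at 208543 ± 14198 normalized counts in control and 188922 ± 24229 in CNV d3, with a log2 fold change of -0.15 (95% confidence interval -0.32 to 0.017, adjusted p = 0.257). CNV d3 replicate 1 had the highest *Ctsd* value of all 12 samples, and without it *Ctsd* was called lower (-0.21, adjusted p = 0.0466). *Ctsc* (chr7:88278085-88310888), the dipeptidyl peptidase that activates serine proteases of granules, was at 56960 ± 3525 in control and 63758 ± 5077 in CNV d3, with a log2 fold change of 0.16 (0.024 to 0.30, adjusted p = 0.122). Changes beyond 0.30 on the log2 scale in either direction were outside the interval of *Ctsc*, *Ctsz* and *Ctsa*.

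*Ctsz* (chr2:174427493-174439039), a carboxypeptidase also known as cathepsin X, gave a log2 fold change of 0.023 (-0.11 to 0.16, adjusted p = 0.817), with a mean of 72286 ± 4643 in control and 73472 ± 5344 in CNV d3. *Ctsa* (chr2:164832873-164841032) gave 0.025 (-0.13 to 0.18, adjusted p = 0.830), with 36798 ± 1547 and 37623 ± 4351. In both, the means of the groups differed by less than the SD of the control samples.

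*Ctsk* (chr3:95499256-95509362) was near the limit of detection. In control it had 1 read in 2 samples and 0 in the other 4, 2 reads in all. In CNV d3 it had between 0 and 10 reads per sample, 19 in all, and 0 in 2 samples. The adjusted p was 0.307, and a difference was not detectable at this depth, which was 10963178 to 22335233 reads on genes per control sample and 23532260 to 29523018 per CNV d3 sample.

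**Figure D2:**
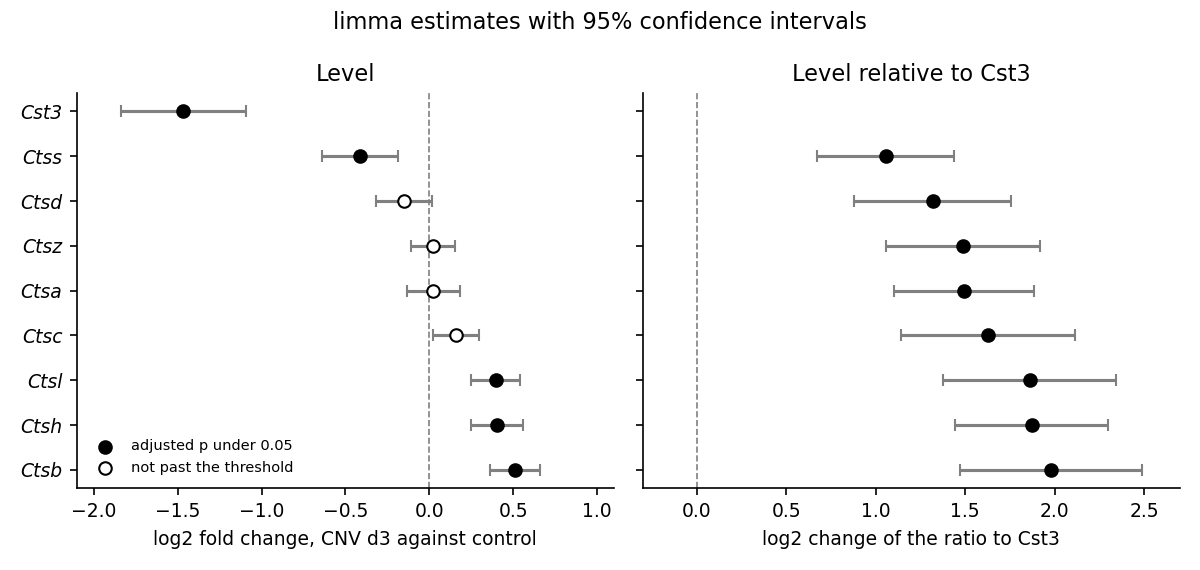
Log2 fold changes of *Cst3* and 8 cathepsins by limma (left) and log2 changes of their ratio to *Cst3* (right), each with its 95% confidence interval (n = 6 per group). Filled points passed an adjusted p of 0.05 and open points did not; on the right, every cathepsin shown lies above 0, from 1.06 for *Ctss* to 1.98 for *Ctsb*.

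Because cystatin C holds cysteine cathepsins in check outside the lysosome, the change of each cathepsin relative to *Cst3* was tested directly, by subtracting the log2 value of *Cst3* in each sample. All 9 cathepsins rose relative to *Cst3*, as did 78.2% of all genes, since *Cst3* itself fell. The count was 8 under the filter on low values, which drops *Ctsk*. For a gene near 0 in both groups, such as *Ctsk*, a rise of this ratio mostly restates the fall of *Cst3*. The log2 change of the ratio was smallest for *Ctss* (1.06, SE 0.18, adjusted p = 0.000101 by limma) and, among the well-measured genes, largest for *Ctsb* (1.98, SE 0.24, adjusted p = 8.88e-06). Even *Ctss*, which fell, fell less than *Cst3*.

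Put as amounts of transcript, the level of *Cst3* per kb was 1.94 ± 0.10 times the summed level of the 7 cysteine cathepsins in control, with a range of 1.80 to 2.08. In CNV d3 it was 0.79 ± 0.20 times that sum, with a range of 0.55 (replicate 3) to 1.06 (replicate 1). Each control sample thus held more *Cst3* than transcript of these 7 cysteine cathepsins, and 5 of the 6 CNV d3 samples held less. Other cysteine cathepsins, such as *Ctsf* and *Ctso*, were not in this sum. With the union of exons as the length, the median ratio was 1.49 in control and 0.64 in CNV d3, where the highest sample reached 0.84.

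The sum of the 7 cysteine cathepsins itself lay at 414287 ± 25744 normalized counts per kb in control and 378675 ± 38127 in CNV d3, and the groups overlapped. Its composition differed. *Ctss* made up 65.4% ± 0.78 of that sum in control (64.4 to 66.5%) and 54.2% ± 5.19 in CNV d3 (45.8 to 59.7%), without overlap. *Ctsb* made up 6.17% ± 0.37 in control (5.90 to 6.85%) and 9.75% ± 1.64 in CNV d3 (8.21 to 12.7%), also without overlap. The 9 cathepsins together took 4.32% ± 0.15 of all normalized counts in control and 4.30% ± 0.30 in CNV d3, and these ranges overlapped while single cathepsins moved in both directions. These sums describe the genes chosen and were given no test.

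**Figure D3:**
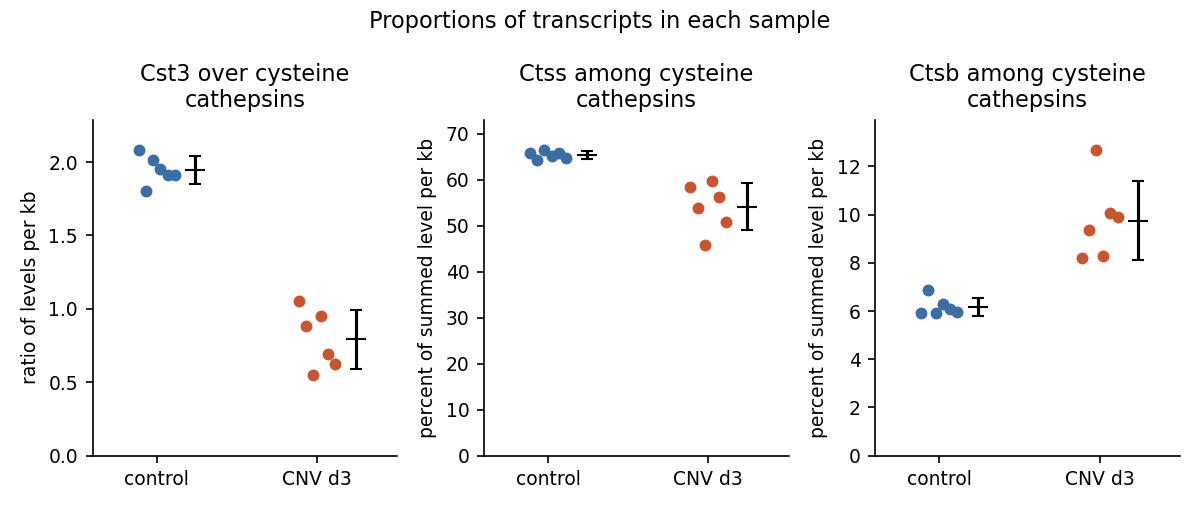
Ratio of *Cst3* to the summed 7 cysteine cathepsins (left), and the percent of that sum taken by *Ctss* (middle) and *Ctsb* (right), all per kb of principal transcript, in each control (blue) and CNV d3 (orange) sample with mean ± SD in black (n = 6). The groups do not overlap in any of the 3 panels; for example, the ratio ranges from 1.80 to 2.08 in control and from 0.55 to 1.06 in CNV d3.

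The CNV d3 samples differed more among themselves than the controls did. The coefficient of variation of *Cst3* was 8.72% in control and 33.2% in CNV d3, and that of *Ctss* 7.16% and 18.4%, where the median over the 271 genes with a mean of at least 10000 was 9.16% and 12.0%. For *Ctsh* the spread went from 9.46% to 6.44%. Within CNV d3, 4 relations of *Cst3* were computed after the values had been seen. *Cst3* and *Ctss* varied together (Pearson r = 0.92, exact permutation p = 0.0111, adjusted 0.0222; Spearman rho = 0.94, exact p = 0.0167, adjusted 0.0444, n = 6), and r was 0.68 once the 2 samples with the most extreme *Cst3* were left out. *Cst3* and *Ctsb* gave r = -0.60 (exact permutation p = 0.210) and rho = -0.54 (exact p = 0.297), which did not pass.

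**Figure D4:**
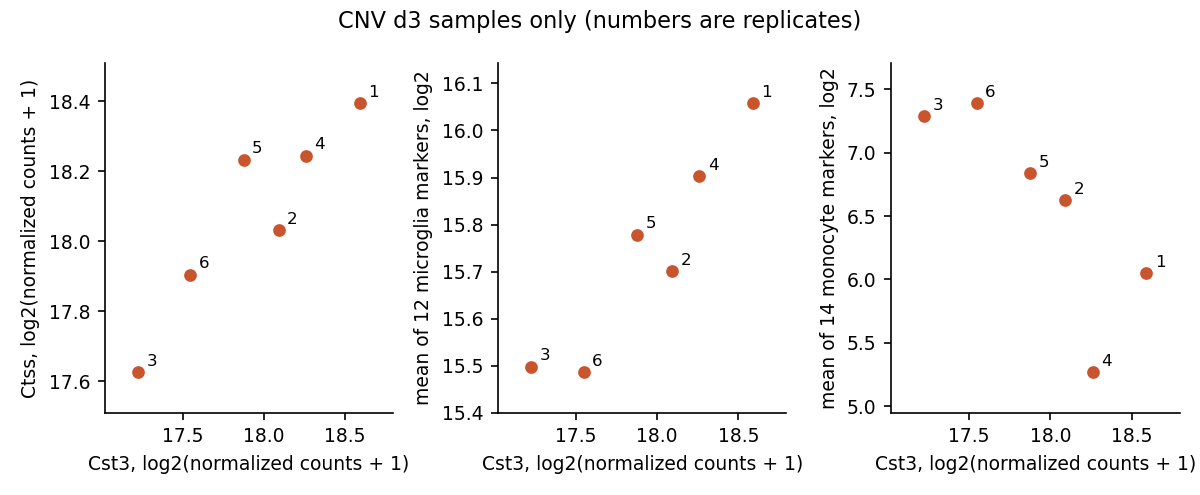
*Ctss* (left), the mean of 12 microglia marker genes (middle) and the mean of 14 monocyte marker genes (right) against *Cst3* in the 6 CNV d3 samples, all as log2(normalized counts + 1), with axes that do not start at 0 and the replicate number beside each point. Replicate 1 has the highest and replicate 3 the lowest *Cst3*; r is 0.92 for *Ctss*, 0.94 for the microglia markers and -0.81 for the monocyte markers.

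Microglia markers were high in all 12 samples, as the label of the sort says, but markers of microglia and of other cells moved with the condition. Of 12 microglia markers, 8 were lower in CNV d3 and 0 higher, and their summed level was between 1536320 and 1697900 normalized counts in control and between 849094 and 1265470 in CNV d3. Of 14 monocyte markers, 8 were higher and 0 lower, with a sum of 1041 to 2432 in control and 7060 to 54776 in CNV d3, most of it from *Fn1*. *Ly6c2*, which encodes the Ly6C that the sort excluded, was at 0 in all control samples and between 1.73 and 25.1 in CNV d3. Within CNV d3 the microglia marker mean rose with *Cst3* (r = 0.94, exact permutation p = 0.00972, adjusted 0.0222; rho = 0.89, exact p = 0.0333, adjusted 0.0444; r = 0.89 without those 2 samples). The monocyte marker mean fell with it by rank (rho = -0.89, exact permutation p = 0.0333, adjusted 0.0444), whereas r was -0.81 (exact p = 0.0556, adjusted 0.0741) and -0.90 without those 2 samples. The part of these cells in the levels of *Cst3* and the cathepsins was not tested.

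All 10 genes of a cell division list were higher, with a sum of 97.4 to 1134 in control and 9215 to 23011 in CNV d3. Of 10 dendritic cell markers 5 were higher and 1, *Siglech*, which microglia also express, was lower (sum 50170 to 55559 in control and 37795 to 46946 in CNV d3). Border macrophage markers gave 3 higher and 0 lower of 9 (sum 2553 to 4272 and 3145 to 4430), and 6 had a log2 fold change above 0. Of the others, *Mrc1* went from 350 to 113 normalized counts (-1.44). It was called lower by DESeq2 (adjusted p = 0.0411) but not by limma (0.233) or edgeR (0.0935). *Lyve1* went from 94.0 to 2.09 (limma adjusted p = 0.671). Both were named after their values were seen. The list for Müller glia and astrocytes gave 3 higher and 1 lower of 10, with a sum of 19508 to 41281 and 57445 to 99554 that is mostly *Apoe*, a gene of microglia too. By edgeR, *Cbr2* (adjusted p = 0.249) and *Folr2* (0.175) were not called, which leaves 1 border macrophage marker, *Stab1*, and *Clu* (0.279) and *Dkk3* (0.0598) were not called, which leaves *Apoe* higher on the glial list. *Xcr1* of the dendritic cell list (0.122) and *S100a4* of the monocyte list (0.0877) were not called by edgeR either. Of 7 endothelial and fibroblast markers with a row, 1 was higher and 1 lower (sum 500 to 990 and 459 to 973). None of the 12 photoreceptor markers (sum 874 to 7498 and 666 to 13549), the 8 pigment epithelium markers (87.0 to 369 and 125 to 397), the 8 neutrophil markers (9047 to 11562 and 4949 to 10770, nearly all *Csf3r*) or the 6 lymphocyte markers (0 to 30.4 and 0 to 36.8) passed the limma test. *Sag* of the photoreceptor list, however, rose from 180 to 815 normalized counts and was called by edgeR (adjusted p = 0.0198). All 12 photoreceptor markers had a log2 fold change above 0, with a median of 1.16. *Cd3e*, *Ly6g*, *Elane* and *Lrat*, which define lymphocytes, neutrophils and pigment epithelium, had no row.

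Genes were also ranked by how closely their 12 values followed those of *Cst3* and *Ctss*, as the root mean square difference of the centred log2 values. For *Cst3* the closest of 9712 genes were *Slc2a5*, a fructose transporter (0.14), *Gpr183*, an oxysterol receptor (0.14), and *Inka1* (0.15), where the median over all genes was 0.91. *Slc2a5* went from 20538 to 7714 normalized counts, *Gpr183* from 10645 to 3804 and *Inka1* from 3085 to 1259. For *Ctss* the closest was another cysteine cathepsin, *Ctsf* (0.074; 11177 in control and 8869 in CNV d3), followed by *Abhd12* (0.090), a serine hydrolase, and *Siglech* (0.094), against a median of 0.49.

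The remaining genes of the cathepsin system were taken from 7 lists, with 79 genes in the table, of which 24 were called higher and 9 lower. Over all genes 8.29% were called higher and 4.57% lower, and over the genes with a mean of at least 10000 normalized counts 26.2% and 32.8%, so nothing particular to the lists is read from their counts. Among 6 other lysosomal peptidases, 2 were lower and 0 higher (median log2 fold change -0.19). The median was 0.15 over all genes and -0.052 over those with a mean of at least 10000. Over genes with a mean of at least 10 it was 0.10 by limma and -0.02 by edgeR. *Ctso*, a little-studied cysteine cathepsin, fell by 0.73 on the log2 scale, from 5409 ± 865 to 3289 ± 624 normalized counts (adjusted p = 0.00218). *Tpp1*, a lysosomal tripeptidyl peptidase, was lower by a log2 fold change of -0.25 (adjusted p = 0.0241 by limma, 0.0702 by edgeR). *Lgmn*, the asparaginyl endopeptidase that matures several cathepsins, was the highest of them at 120629 ± 8425 and 110525 ± 10977, with -0.13 (adjusted p = 0.277). The 9 placental cathepsins had no row and were not analysed here.

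Among inhibitors other than cystatin C, the ones that passed the test were higher in CNV d3. Of 19 cystatin and stefin genes 4 had a row, and 2 of them were higher (median 1.05). The rest were at 0 in every control sample, with CNV d3 means of 2.07 or less, so this median depends on the pseudocount. *Cstb*, the cytosolic inhibitor stefin B, rose from 1563 ± 187 to 2523 ± 549 normalized counts (log2 fold change 0.67, adjusted p = 0.00705). *Cst7*, cystatin F, an inhibitor that enters lysosomes and acts on cathepsin C, rose from 530 ± 91.5 to 1435 ± 1013 (1.23, adjusted p = 0.0147), with groups that did not overlap. The highest CNV d3 value of *Cst7* was that of replicate 3. Of 10 further inhibitors 3 were higher (median 1.08), and 7 reached a mean of at least 10 in either group. That median rests in part on genes with samples at or near 0, where the pseudocount sets the value. *Ctla2a*, which resembles a cathepsin propeptide, rose from 9.98 to 337 (6.10, adjusted p = 0.000711). *Serpinb1a* had 0 reads in every control sample and a mean of 16.1 in CNV d3 (adjusted p = 0.0105), and the third, *Serpina3g*, which lies below the level set for naming and was named after its values were seen, had a mean of 7.39 against 0. *Serpinb9*, the highest of this list, was at 818 ± 461 and 649 ± 149.9 and did not pass (-0.23, adjusted p = 0.608).

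Delivery to the lysosome gave 3 higher and 0 lower of 16 genes (median 0.07). *Gnptab*, which makes the mannose 6-phosphate tag of lysosomal enzymes, rose 2.52-fold from 1055 to 2660 normalized counts (log2 fold change 1.38, adjusted p = 0.000177). *Igf2r*, a receptor for that tag, was at 0 in 5 control samples and at 7.48 to 240 in CNV d3 (adjusted p = 0.00137), where replicate 4 was highest. *Lrp1*, an endocytic receptor that also takes up secreted lysosomal enzymes, rose 1.48-fold and was the highest of the list (0.57, adjusted p = 0.0264). The other mannose 6-phosphate receptor, *M6pr*, gave -0.15 (adjusted p = 0.271), and the regulator *Tfeb* -0.39 (adjusted p = 0.149). These last 2 genes were named after their values were seen.

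Among 9 proteins that cathepsins cut or shield, 3 were higher and 2 lower (median 0.24). *Cd74*, the invariant chain that cathepsin S trims, rose 6.31-fold from 2171 ± 922 to 13699 ± 9591 normalized counts (log2 fold change 2.37, adjusted p = 0.00369), the opposite direction to *Ctss*. *H2-DMa* and *H2-DMb1*, which load peptides on MHC class II after that step, were lower (-0.39, adjusted p = 0.00958, and -0.37, adjusted p = 0.0104). *Grn*, whose product progranulin is cut to granulins in the lysosome, rose 1.48-fold (0.57, adjusted p = 0.000232) to 113998 ± 10978. *Glb1*, the galactosidase that cathepsin A shields, rose 1.35-fold (0.44, adjusted p = 0.0317).

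Of 34 other lysosomal hydrolases and membrane proteins, 13 were higher and 5 lower (median 0.20). The higher ones included *Lyz2*, lysozyme (from 13305 to 29949 normalized counts, log2 fold change 1.18, adjusted p = 1.15e-05), *Gusb*, a glucuronidase (from 10886 to 20841, 0.94, adjusted p = 5.01e-05), and *Gm2a*, a cofactor for ganglioside breakdown (from 13141 to 20239, 0.62, adjusted p = 3.71e-05). *Lamp1*, a membrane protein of the lysosome, rose 1.16-fold (0.22, adjusted p = 0.0330, and 0.0638 by edgeR). The lower ones included *Laptm5* (-0.38, adjusted p = 0.00233), the phospholipase *Pla2g15* (-0.89, adjusted p = 0.000316) and the phosphatase *Acp2* (-0.50, adjusted p = 0.00173).

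**Figure D5:**
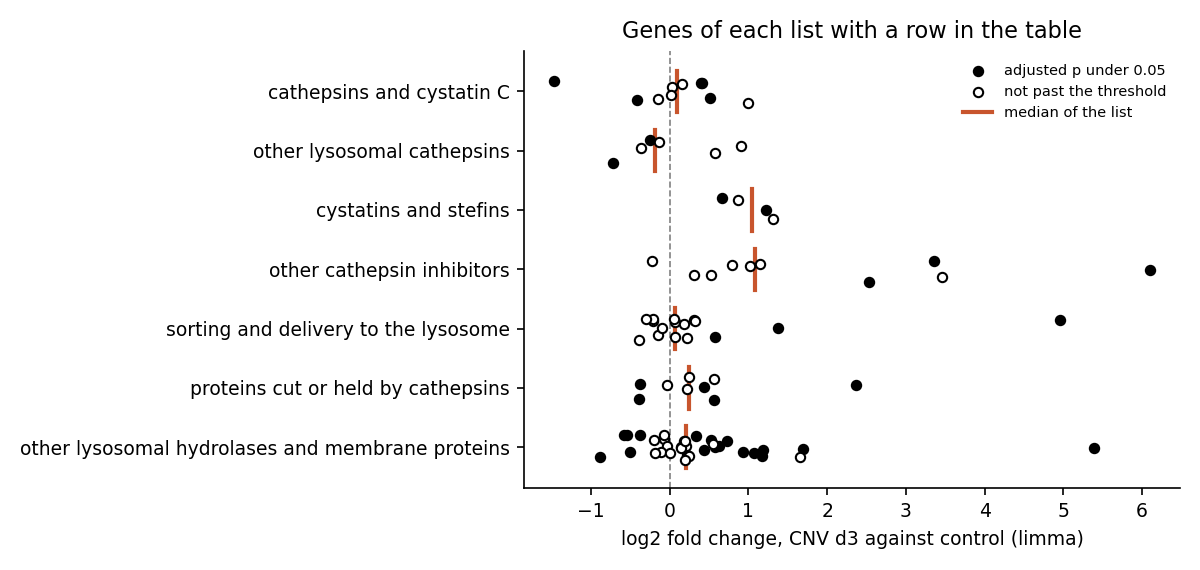
Log2 fold change by limma of every gene with a row in the table, for the 10 genes examined and 6 lists of related genes; filled points passed an adjusted p of 0.05, open points did not, and the orange bar is the median of the list. *Cst3* at -1.47 is the lowest point, and *Ctla2a* at 6.10 the highest; the values of genes with 0 reads in control depend on the pseudocount of 1.

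Counting bears on some of these genes. Default counting ignores strand and leaves out reads that fall in exons of more than 1 gene, and exons of *Ctsa* (*Neurl2*, *Pltp*), *Ctsb* (*Fdft1*), *Ctsd* (*Gm49369*), *Ctsl* (*Gm47123*, *Gm49230*) and *Ctsz* (*Nelfcd*) overlap those of other genes, so their levels are uncertain to that extent. *Cst3*, *Ctsc*, *Ctsh*, *Ctsk* and *Ctss* share no exon with another gene.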

How the data were processed

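Retinal microglia from 6 CNV d3 and 6 control samples, grouped by their labels, were analysed. The authors made cDNA by template switching and PCR, mapped single reads with STAR 2.7.2b to GRCm38.p6 (Gencode M25), merged BAM files, counted with featureCounts 1.6.4 at default parameters, removed genes without reads and divided counts by DESeq2 1.22.2 size factors, which gave the deposited signal, here called normalized counts. The 4 columns of the authors' fold changes, adjusted p-values and group means were not used. Every value (100%, within 0.01) was a whole multiple of the step of its sample, so reads were recovered, 10963178 to 29523018 per sample. No molecular identifiers mark PCR copies, so low counts carry more than counting error.

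The main test was limma 3.58.1 (R 4.3.3, with trend, no covariates, no filter) on log2(normalized counts + 1) over 27299 genes with Benjamini-Hochberg adjustment, because the values are not raw counts. edgeR 4.0.16 and DESeq2 1.42.0 on recovered reads, other scalings, pseudocounts of 0.5 and 10, a filter of 10 in 6 samples, limma without trend, thinning, a threshold of 0.01, a replicate block and the omission of each sample were alternatives. Scripts were tested on simulated data. Correlations used exact permutation of the 6 pairings. Members and lists were chosen with earlier results of these data known. Named genes were all members, and of each list those past an adjusted p of 0.05 with a mean of at least 10 (at most 4 per direction, by level) and the highest gene; others are said to be chosen afterwards. A gene of the lists is not reported here by name. Coordinates and lengths came from Gencode M21 on GRCm38 (27238 of 27299 genes matched by identifier), taking the APPRIS principal transcript with the best support. Promoters came from RefSeq (GRCm38.p6).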

Additional observations from a re-analysis of the deposited data

Results flagged for a closer look

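In 65 groups of 6 samples, formed by the named genes in control and in CNV d3, the gap of the highest or lowest sample to its neighbour was compared with Dixon's critical value, which chance exceeds in about 1 of 20 groups, and 7 groups passed it. None was a group of the 10 cathepsin and cystatin C genes. *Lgmn* was at 136900 normalized counts in control replicate 5, with 120803 as the next value. *Laptm5* was at 163081 in control replicate 3 (143176 next) and *Serpinb9* at 1710 there (882 next). *Cst7* was at 3418 in CNV d3 replicate 3, the sample with the lowest *Cst3* and *Ctss*, where the next value was 1503. *Ctla2a* was at 40.6 in control replicate 4 (13.9 next). *Igf2r* was at 240 in CNV d3 replicate 4 (89.7 next), and its 1.01 in control replicate 4 is a single read among samples at 0.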

How the results depend on the processing

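*Cst3* kept its direction and its call in 23 of 23 alternatives (log2 fold change -1.60 to -1.33), as did *Ctsb* (0.47 to 0.55). Of the 10 genes, 1 in place of 2 was called lower, since *Ctss* was lost, with a pseudocount of 10, in limma without trend, after thinning to the shallowest library and at an adjusted p under 0.01. Without trend, 1 in place of 3 was called higher (*Ctsb*), and 5 in place of 9 other genes of the lists were lower. At 0.01, 15 in place of 24 were higher. Leaving out 1 sample in turn gave 1 to 3 genes called lower (3 without CNV d3 replicate 1, with *Ctsd*) and 0 to 1 DEG (*Cst3*). Signs turned only for genes that never passed: *Ctsa* (-0.028 without CNV d3 replicate 1, and up to 0.072 without another sample) and *Ctsz* (-0.011 without CNV d3 replicate 1, -0.0035 without control replicate 2, and up to 0.046). Leaving out both CNV d3 replicates 1 and 3, chosen after seeing the data, left 3 genes higher and 2 lower. Same-numbered samples did not deviate together (correlations -0.05 to 0.07, own number best for 1 of 6). No pairing by number was thus seen, and other sharing between samples was not tested. With a replicate block, 3 genes were higher, 2 lower and 9 cathepsins changed relative to *Cst3*, while calls over all genes went from 2264 higher and 1247 lower to 1885 and 975. DESeq2 called 2493 higher and 2170 lower. The low depth of *Ctsk*, at most 10 reads, sets the limit for that gene, and the causes of these differences were not tested.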
